A study of Drosophila melanogaster with 20 samples.

Results

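The post-mating response of the dissected female brain was set against that of the whole female head, both 24 h after mating, in Drosophila melanogaster. The question the comparison addresses is which transcripts respond to mating differently in the brain than in the head as a whole. A probe entered if it lay on print plates 2 to 30, where a row held the same gene in both tissues, and had at least 2 values in each tissue. This held for 2499 of the 15744 probes of the array, and 11136 probes lay on those plates. Of these, 4804 had at least 2 values in brain and 3100 in head, so the head arrays set most of the limit. The comparison used 8 of the 20 arrays of the series, 4 for each tissue. The values are log2 ratios of mated over virgin females, so 1 is a doubling of the transcript in mated females and -1 a halving. The difference is the brain ratio minus the head ratio: a positive value means that the ratio was higher in brain.

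All females were of the wild-type strain Canton S and were 5 days old when they mated. They were paired with males carrying w; P[UAS-dj-GFP], whose sperm fluoresce, and mated females were sorted by that fluorescence under CO2. The other sample on each array came from virgin females of matched age. A head sample was a pool of about 100 heads from snap-frozen flies, with 20 µg of total RNA labelled directly as cDNA. A brain sample was a pool of 20 brains dissected in ice-cold buffer from flies chilled on ice, and its RNA was amplified before labelling. Tissue, handling and amplification changed together, so their shares in a difference cannot be told apart. The 4 arrays of a tissue were labelled as biological replicates. Mated RNA carried Cy3 on replicates 1 and 2 and Cy5 on replicates 3 and 4 in both tissues.

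The head of a fly holds the brain together with the compound eyes, the antennae, muscle, cuticle and the head fat body, the counterpart of liver and adipose tissue, which stores protein, lipid and glycogen and secretes proteins into the hemolymph. A transcript made in the fat body alone would be seen in the head samples and not in a clean brain, and a transcript of neurons would be seen in both. After mating, females lay more eggs, feed more and refuse further courtship. A ratio carries no level: fewer cells of a type and less RNA per cell cannot be told apart. Which cells a tissue sample held was not measured. Since the reason for empty cells is not given, which probes had values does not settle it.

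On the tested probes the brain arrays were filled for 2238 to 2438 probes and the head arrays for 391 to 2293, and 84.4% of the tested probes had no value on head replicate 2. The head mean therefore rested mostly on at most 1 array with mated RNA in Cy3 and 2 with mated RNA in Cy5. For 995 probes it rested on 2 arrays, and 1919 had a head value in each dye orientation. In brain, 2086 probes had values on all 4 arrays. Between brain arrays with the same dyes, r across probes was 0.62 and 0.70, and between those with opposite dyes it was -0.29 to -0.12. Between head arrays r was -0.05 and 0.51 with the same dyes and -0.03 to 0.17 with opposite dyes. A dye term was therefore also fitted, and its results are given below for the counts over all probes and for some genes and lists. Of the cell type markers on these plates, the fat body genes Lsp2, fit and Tsf1 had values on all 4 brain arrays and on 3 head arrays, as had the blue opsin Rh5 of the photoreceptors, so the brain ratios of these genes were measured. Of the 5 neuronal markers, cac and cpx had values on 4 brain arrays and on 2 and 3 head arrays, Sh on 2 brain and 3 head arrays, and Ca-beta and Teh1 on 4 brain arrays and no head array. Pbprp1, a marker of antennal support cells, also had values on 4 brain arrays and no head array. The gene table carries no names. Names came from the study's lists of 100 genes for each experiment, which named 406 probes, of which 118 lay on other plates and 99 had too few values here. The remaining 189 named probes stood for 188 genes. Since 2 of those lists had been picked on these same 8 arrays, the counts of named genes below are descriptive and are no independent evidence of a direction.

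Across all 2499 probes the Pearson correlation of the mean ratios of brain and head was 0.07 and the Spearman correlation 0.03, and over the 189 named probes they were 0.28 and 0.20. These describe probes that share arrays and dyes, and brain arrays of opposite dyes themselves correlated below 0. Ratios had the same sign in both tissues for 653 probes that were higher and 575 that were lower in mated females, while 565 were higher in brain and lower in head and 706 the reverse. The spread between replicates, which includes any dye bias, was alike. Its median SD was 0.35 in each tissue over the 1446 probes with at least 3 values in each. The head means spread more widely, with an SD of 0.41 across probes against 0.28 in brain. They rested on fewer arrays, so these SDs cannot be read as a larger response in head.

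In the test of the difference (limma, Benjamini-Hochberg adjustment over all 2499 probes), 5 probes passed an adjusted p of 0.05, which is 0.2% of those tested. All were named, and all had a higher ratio in brain than in head: Lsp2, aay, CG10962, Nmdmc and CG11089, each with an adjusted p of 0.0314. The next was CG9914, at 0.062. At an unadjusted p under 0.05 there were 140 probes with the higher ratio in brain (5.6%) and 78 with the higher ratio in head (3.12%). With a dye term within each tissue, 1862 probes could be tested and 89 passed, 61 with the higher ratio in brain (3.28%) and 28 with the higher ratio in head (1.5%). The 5 probes were among them, and in head the dye term rested mostly on 1 array with mated RNA in Cy3. The calls needed nearly all arrays: without brain replicate 1, or without head replicate 1, 3 or 4, limma called no probe, and the unadjusted count was then 119, 124, 119 or 89 higher and 63, 97, 54 or 45 lower in brain. Within each tissue alone, TotC, CG3348 and CG8147 passed in brain (0.12% of probes, all induced) and Lsp2 in head (0.04%, repressed).

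**Figure D1:**
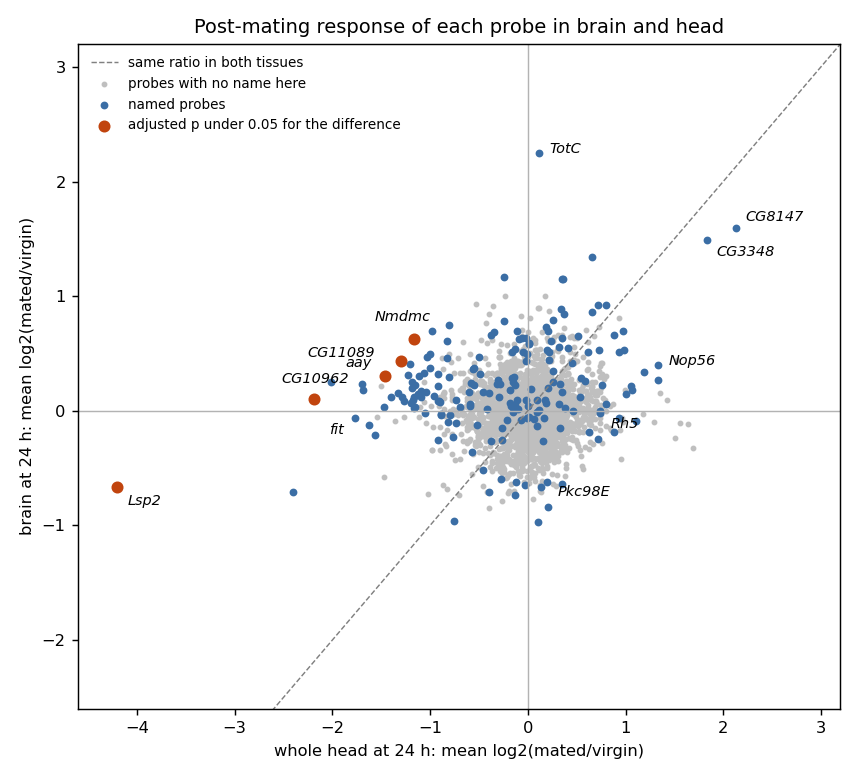
Mean log2 mated/virgin ratio of each of the 2499 probes in whole head (horizontal) and brain (vertical) at 24 h, with the 189 named probes in blue and the 5 probes that passed the test of the difference in red; the dashed line marks equal ratios. The called probes lie to the left, with head means from -4.21 to -1.16, and in brain 4 of them average 0.10 to 0.63 and Lsp2 -0.66, and CG3348 and CG8147 lie near the line.

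Among storage and secreted proteins of the fat body, Lsp2 had the largest difference of all named probes. Lsp2, larval serum protein 2, an amino acid storage protein of the fat body, had log2 ratios of -3.71, -4.42 and -4.49 on head replicates 1, 3 and 4. On the brain arrays its ratios were -0.72, -1.99, -0.43 and 0.48. Every head value lay below every brain value, and the brain values themselves spanned both signs. The difference was 3.54 (SE 0.48, 95% interval 2.48 to 4.61), and the head mean corresponds to an 18.5-fold lower level in mated females. fit, a secreted protein of the female head fat body, had ratios of -1.55, -2.21 and -1.55 in head and of 0.48, -0.21, -0.58 and 0.06 in brain. Its difference of 1.71 (SE 0.31) did not pass, with an adjusted p of 0.0645 from limma.

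Other genes placed in this list followed the same order without passing. Whether each of them is stored or secreted was not tested. smp-30, a homologue of the mammalian senescence marker protein regucalcin, had ratios of -1.80 and -2.22 in head and of 0.84, 0.71, -0.94 and 0.40 in brain. Reg-2, a gene first described by its daily rhythm, averaged -0.92 in head and 0.32 in brain, and the lipid transfer protein Mtp averaged -1.06 and -0.02. Mtp is counted among the lipid genes below as well. Glt, whose values are given further below, also belongs to this list. Of the 11 genes listed, 7 could be tested. All 7 had the higher ratio in brain, with a median difference of 1.68 against -0.06 over all probes. An unadjusted p under 0.05 was reached by 6 of the 7, against 5.6% of all probes. In 6 of the 7 every brain value lay above every head value, which held for 7.8% of all probes. The exception was Tsf1, the iron carrier transferrin, with a difference of 0.14 (95% interval -0.72 to 0.99). All 7 head means were below 0. Of the 7 genes, 5 had been named from a list picked on these arrays, and Lsp1beta, to, Obp99a and Obp99b lay on plates whose print layouts differed.

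Enzymes of amino acid and one-carbon metabolism mostly had head ratios below 0 and brain ratios above 0. This pathway takes a carbon unit from serine, carries it on folate and passes it to purines and to methionine. Nmdmc, the mitochondrial methylenetetrahydrofolate dehydrogenase and cyclohydrolase, had brain ratios of 0.59, 0.67, 0.62 and 0.63. Its head ratios were -1.05, -0.70 and -1.74. The 4 brain arrays were thus uniformly above 0 and the 3 head arrays below 0, and the difference was 1.79 (SE 0.28). The mean in each tissue departed from 0 at an unadjusted p of 0.00285 in brain and 0.00287 in head from limma, and neither passed the adjustment. aay, phosphoserine phosphatase, which makes serine, had ratios of -1.71, -1.31 and -1.36 in head. In brain they were 0.28, 0.23, -0.04 and 0.76, and the difference was 1.77 (SE 0.27).

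CG3011, serine hydroxymethyltransferase (Shmt in RefSeq), which loads the carbon of serine onto folate, was measured on all 8 arrays. Its head ratios were -1.70, -0.30, -1.20 and -1.61 and its brain ratios 0.66, 0.35, 0.01 and 0.62. No head value reached a brain value, and the difference of 1.61 (SE 0.32) had an adjusted p of 0.0696 from limma. CG10621, a predicted homocysteine methyltransferase, which makes methionine, had head ratios of -1.82, -1.65 and -1.61 and brain ratios of -0.19, -0.50, 0.12 and 1.28. CG34424, the methenyltetrahydrofolate synthetase Mthfs, was outside the list and was singled out after its values were seen: it averaged 0.67 in brain and -0.37 in head, a difference of 1.04 (SE 0.25).

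Of the 22 genes listed for amino acid and one-carbon metabolism, 10 could be tested. All 10 had the higher ratio in brain, 2 passed the adjusted threshold and 9 had an unadjusted p under 0.05. The median difference was 1.39, made of a median ratio of -1.06 in head and 0.33 in brain. The brain mean was above 0 for all 10 and the head mean for 1. In 8 of the 10 every brain value lay above every head value. Over all probes these shares were 0.2% past the adjusted threshold, 5.6% at the unadjusted p and 7.8% without overlap. Among these 10 genes, 9 had been named from a list picked on these arrays. With the dye term 9 could be tested and 7 passed, all with the higher ratio in brain.

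Purine synthesis takes up folate-borne carbon, and 3 of its 4 tested genes had the higher ratio in brain. CG11089, which carries the last 2 steps to inosine monophosphate, had head ratios of -1.09, -1.52 and -1.29. Its brain ratios were 0.28, 0.90, 0.02 and 0.54, so all arrays of a tissue shared a sign. The difference was 1.73 (SE 0.28). Prat2, the enzyme of the committed step, had head ratios of -1.19, -1.32 and -1.04 and brain ratios of -0.20, -0.28, 0.34 and 1.15. ade3, which encodes the multifunctional enzyme named Gart in RefSeq, was low on 3 head arrays, at -1.25, -1.28 and -1.26, but at -0.19 on head replicate 2, and in brain it ran from -0.52 to 1.44. The fourth gene tested, the GMP synthetase bur, had a difference of -0.01 (95% interval -0.68 to 0.65). Of the 6 genes listed 4 were tested, and 3 of the 4 had an unadjusted p under 0.05. The adjusted threshold was passed by 1, and the median difference was 1.46. Over all probes the shares were 5.6% and 0.2%, and 3 of the 4 had been named from a list picked on these arrays.

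The pentose phosphate enzymes and the enzymes that supply NADPH had head means below -1 and brain means near 0. CG17333, 6-phosphogluconolactonase (Pgls), had head ratios of -0.82, -0.88 and -1.50 and brain ratios of 0.37, -0.04, 0.36 and 0.64. Men, the malic enzyme, was at -1.18 and -1.17 on 2 head arrays and averaged 0.10 in brain. Tal, transaldolase (Taldo), averaged -1.17 on 2 head arrays and 0.12 on 3 brain arrays. All 3 tested genes of 5 had an unadjusted p under 0.05, against 5.6% of all probes. None passed the adjusted threshold, and the median difference was 1.29. All 3 had been named from a list picked on these arrays.

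Sugar and glycogen genes were more mixed. CG32444, a predicted aldose 1-epimerase, had head ratios of -2.07, -1.68 and -0.93. Its brain ratios were -0.46, -1.12, 0.20 and 0.54, so brain replicate 2 lay among the head values. CG3534, a predicted xylulokinase, averaged -1.13 in head and 0.15 in brain, Pgi, phosphoglucose isomerase, -0.90 and 0.08, and the glycogen debranching enzyme CG9485 -0.55 and 0.23. Of the 9 genes tested of 11, 8 had the higher ratio in brain and 4 an unadjusted p under 0.05, and the median difference was 0.78. Over all probes these shares were 44.5% and 5.6%, and 3 of the 9 had been named from a list picked on these arrays. Lipid genes had a smaller gap, with a median difference of 0.59. Of the 10 tested, 5 had an unadjusted p under 0.05, against 5.6% of all probes. A list picked on these arrays had named 4 of the 10. Among the lipid genes the acyl-CoA dehydrogenase CG3902 had the largest gap, at 1.54 (SE 0.30). The fatty acid binding protein CG6783 (fabp) averaged -0.92 in head and -0.25 in brain. AcCoAS, the acetyl-CoA synthetase, was at -0.59 on both of its head arrays and averaged 0.06 in brain.

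Alcohol, aldehyde and aldo-keto dehydrogenases had head means below 0 in all 7 genes tested. CG10962, a short-chain dehydrogenase, had head ratios of -1.60, -2.78 and -2.20 and brain ratios of 0.22, -0.40, -0.15 and 0.73. The brain values scattered about 0 and did not reach any head value, and the difference was 2.29 (SE 0.35), which is 4.91-fold. Aldh, the mitochondrial aldehyde dehydrogenase, was measured on all 8 arrays: its head ratios were -0.91, -1.29, -0.63 and -0.46 and its brain ratios 0.70, 0.39, 0.20 and 0.56. Its signs were thus opposite on every array of the tissues, with a difference of 1.29 (SE 0.25, adjusted p 0.0645 from limma). CG31075, of the aldehyde dehydrogenase family, averaged -1.62 in head and -0.13 in brain, and Adh, alcohol dehydrogenase, -1.17 and 0.03. All 7 tested genes of 12 had an unadjusted p under 0.05 and in all 7 every brain value lay above every head value; 1 passed the adjusted threshold and the median difference was 1.19. Over all probes the shares were 5.6%, 7.8% and 0.2%. All 7 had been named from a list picked on these arrays. CG9914, the hydroxy acid dehydrogenase Had1, outside the list, was at -1.39, -1.33 and -1.48 in head and averaged 0.12 in brain, a difference of 1.53 (SE 0.27).

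**Figure D2:**
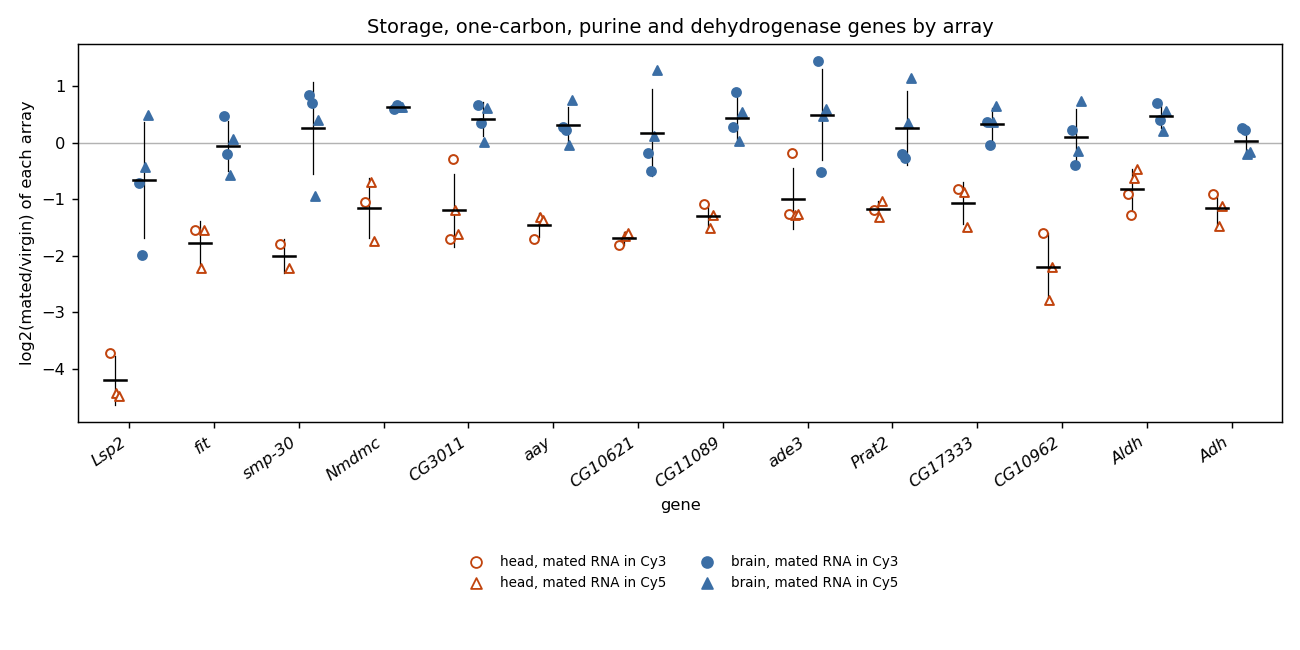
Log2 mated/virgin ratio on each array for 14 metabolic genes, with open red symbols for head, filled blue symbols for brain, circles for mated RNA in Cy3 and triangles for mated RNA in Cy5; bars give the mean and lines 1 SD. The head values of these genes lie below 0, and for 13 of the 14 they lie below every brain value, ade3 being the exception.

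Detoxifying enzymes gave few members. The carboxylesterase alpha-Est2 averaged -0.92 in head and 0.22 in brain, a difference of 1.14 (SE 0.31), and the cytochrome P450 Cyp28d1 -0.58 and 0.24. Of 11 genes listed 4 were tested, 2 of them with an unadjusted p under 0.05, against 5.6% of all probes. A list picked on these arrays had named 1 of the 4. Cyp6g1, with a difference of 0.55 (95% interval -0.32 to 1.42), and GstE1, with -0.41 (-1.10 to 0.27), were undecided. CG17325, whose function is not annotated in the sources used here, averaged 0.75 in brain and -0.81 in head. It had been named from lists of other times. So had Glt, the basement membrane glycoprotein glutactin, already counted in the list of storage and secreted proteins, with a mean of 0.70 in brain and -0.98 in head.

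A gene could depart from 0 in both tissues. At an unadjusted p under 0.05 in each, 9 probes (0.36%) had opposite signs, and all 9 were higher in brain and lower in head, none the reverse (0.0%). The named ones were Nmdmc, CG11089, Aldh, CG3011, CG15096 and CG17325. The first 4 belong to the lists of one-carbon, purine and dehydrogenase enzymes. They had been named from the 24 h head list picked on these head arrays, so their membership is no independent evidence. At that p in single tissues, 4.52% of probes were higher and 3.48% lower in brain, and 3.8% higher and 5.36% lower in head. CG15096 was singled out after its values were seen. Its brain ratios were 0.72, 0.40, 0.42 and 0.35 and its head ratios -0.54, -0.54 and -0.41, so the arrays of each tissue lay close together.

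TotC, a stress-induced secreted protein of the Turandot family, had brain ratios of 1.83, 2.32 and 2.58 and head ratios of -0.20 and 0.42. It was induced in brain at an adjusted p of 0.017 from limma (4.74-fold), and its difference of 2.13 (SE 0.36) had an adjusted p of 0.0645. The head values of TotC came only from arrays with mated RNA in Cy5, and its brain values mostly from Cy3 arrays. No dye term could be fitted for it, and dye and tissue are partly mixed in its difference. TotA, of the same family, had brain ratios of 1.35, 2.01, 1.59 and -0.34 and averaged 0.35 in head. AttA, the antibacterial peptide attacin A, ran from -0.19 to 2.31 in brain and from -1.13 to 0.55 in head, and the ranges overlapped. Hf, helical factor, a secreted immune protein, was narrower, with brain ratios of 0.61, 0.55, 0.29 and 0.71 and head ratios of -0.44, -0.11 and 0.15, a difference of 0.67 (SE 0.26).

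Of 18 immune genes 13 were tested, of which 9 had been named from a list picked on these arrays. All 13 had a brain mean above 0 and 10 a head mean above 0, with medians of 0.69 and 0.24. The median difference was 0.49, 12 of the 13 were higher in brain, 3 had an unadjusted p under 0.05 and none passed the adjusted threshold. Over all probes 44.5% were higher in brain, 5.6% with such an unadjusted p. For single genes the gap moved with the dye. For CG15065 (the bomanin BomS5) the brain ratios were 2.42 and 1.36 with mated RNA in Cy3 and 0.21 and 0.61 in Cy5, and over the Cy5 arrays of both tissues its difference was -0.04 instead of 0.79. Over the Cy5 arrays only 8 members could be tested, of which 4 were higher in brain, with a median difference of 0.22. With the dye term 10 of 11 tested members were higher in brain and the median difference was 0.47. Among peptidases and their inhibitors 6 were tested, of which 2 had been named from a list picked on these arrays. An unadjusted p under 0.05 was reached by 2 of the 6, against 5.6% of all probes. They were CG16712 (IM33), of the Kunitz inhibitor type, with brain ratios of 0.79, 0.55, 0.34 and 0.68 and head ratios of 0.17, 0.11 and -0.25, and the serine peptidase homologue CG5390, with means of 0.16 and -0.60. CG16704 averaged 0.62 and -0.09, with a difference of -0.02 over the Cy5 arrays, and CG11841 0.44 and -0.02.

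The 3 muscle genes tested had means above 0 in both tissues, and all 3 had been named from a list picked on these arrays. Act57B, a muscle actin, averaged 0.79 in brain and 0.26 in head, Tm1, tropomyosin, 0.53 and 0.19, and jbug, a filamin, 0.64 and 0.35. None of the 3 had an unadjusted p under 0.05 for the difference, and the intervals reached from -0.32 to 1.27. The brain values of Act57B were 1.35 and 1.17 with mated RNA in Cy3 and 0.71 and -0.04 in Cy5. The part of muscle tissue in the dissected brains was not tested.

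CG3348 and CG8147, which were induced in brain, had high ratios in head as well. CG3348, which has chitin-binding domains, had brain ratios of 1.43, 1.60, 1.55 and 1.38 and head ratios of 1.51, 2.27 and 1.72. CG8147, an alkaline phosphatase (phu), had brain ratios of 1.59, 1.20, 2.21 and 1.37, and head ratios of 2.28, 0.62 and 3.50. Both were above 0 on every array that measured them, and in both the tissues overlapped. The differences were -0.34 (95% interval -0.92 to 0.23) and -0.54 (-1.74 to 0.66), so a gap within those bounds was not detectable here. Without head replicate 4 the difference of CG8147 was 0.14. CG10680, whose function is not annotated in the sources used here, averaged 0.66 in brain and 0.88 in head, with a difference of -0.22 (-0.75 to 0.32). CG16836 (the bomanin BomT2) averaged 0.86 and 0.66, with a difference of 0.20 (-0.52 to 0.92), and its brain values were again higher in Cy3 (1.25 and 1.60) than in Cy5 (0.15 and 0.46). These 4 and Nmdmc were on both 24 h lists of the study and were tested here; retinin and Obp99b lay on other plates. At an unadjusted p under 0.05 in both tissues, 15 probes were higher in both (0.6%) and 5 lower in both (0.2%).

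**Figure D3:**
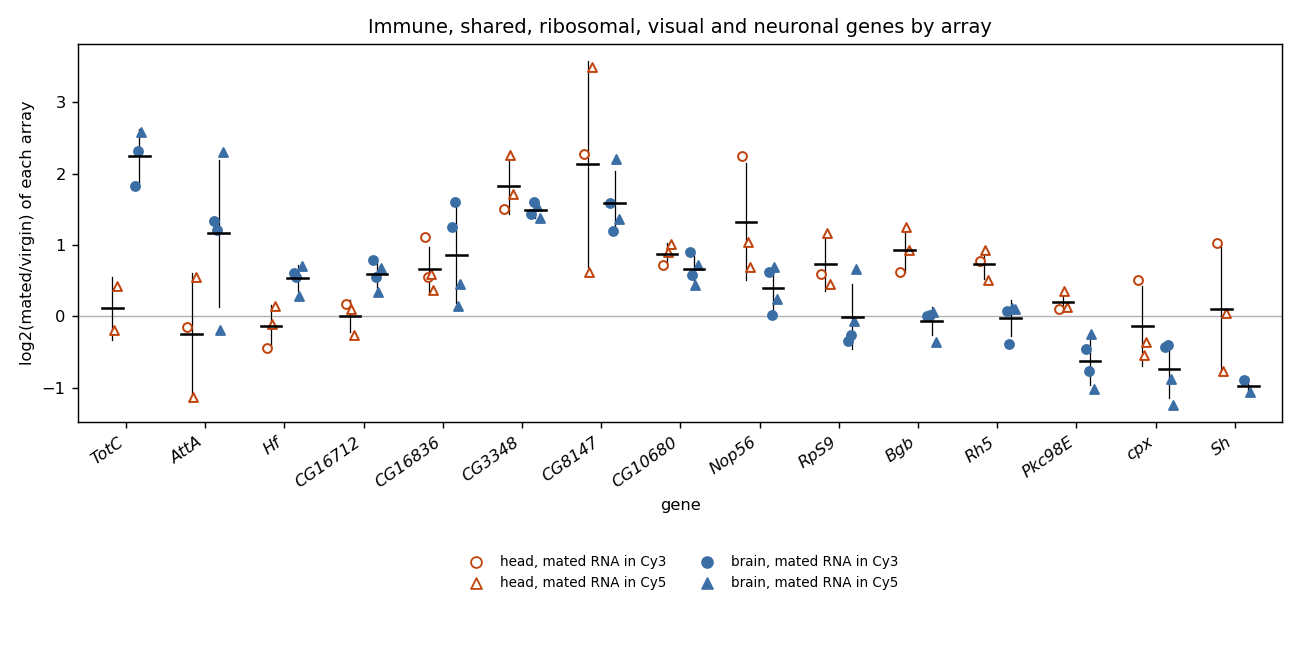
Log2 mated/virgin ratio on each array for 15 genes outside metabolism, with symbols as for the metabolic genes (open red for head, filled blue for brain, circles for mated RNA in Cy3, triangles for Cy5, bars for the mean and lines for 1 SD). TotC is high in brain and near 0 in head, CG3348, CG8147 and CG10680 are high in both tissues, and Bgb, Rh5, Pkc98E and Sh have every brain value below every head value.

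No probe passed with the higher ratio in head (0.0%). With the dye term 28 did, of which 5 were named: Bgb, CG9449, Nop56, heph and a probe for a ribosomal RNA. Of these, Nop56, heph and the ribosomal RNA probe rested on head replicate 1: without it their plain differences were -0.47, -0.14 and 0.61, against -0.94, -0.99 and -0.86 with all arrays. Among the 189 named probes, 14 had an unadjusted p under 0.05 in this direction, against 3.12% of all probes. Bgb, the partner subunit of Runx transcription factors, had head ratios of 0.62, 1.25 and 0.93 and brain ratios of 0.00, 0.03, 0.06 and -0.36, a difference with a 95% interval of -1.57 to -0.43. Rh5, the blue-sensitive opsin of a class of photoreceptor cells, had head ratios of 0.77, 0.93 and 0.51 and brain ratios of 0.08, -0.39, 0.12 and 0.10. In both genes the tissues did not overlap, as in 8.16% of all probes in this direction. Of the eye genes listed, Rh5 was the single one of 6 on these plates. CG32790 (CG43689 in RefSeq) averaged 0.88 in head and -0.18 in brain, CG9449, a histidine phosphatase, 1.33 and 0.27, and Wwox, an oxidoreductase, 0.80 and 0.06.

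Genes of the nucleolus and ribosome leaned the same way. Nop56, a core protein of the particles that methylate ribosomal RNA, had head ratios of 2.25, 1.05 and 0.69 and brain ratios of 0.63, 0.02, 0.69 and 0.24. The ribosomal protein gene RpS9 had head ratios of 0.60, 1.16 and 0.45 and brain ratios of -0.35, -0.26, -0.06 and 0.67. Both pairs of groups overlapped, with differences of -0.94 (SE 0.37) and -0.74 (SE 0.32). RpS20 averaged 0.55 in head and 0.29 in brain, and Nop60B, a pseudouridine synthase, 0.32 and 0.06. All 7 tested genes of 9 had the lower ratio in brain and all 7 had head means above 0, with a median difference of -0.26. An unadjusted p under 0.05 was reached by 2 of the 7, against 3.12% of all probes in this direction. A list picked on these arrays had named 2 of the 7. Over the Cy5 arrays alone 2 of the 7 had the higher ratio in brain, RpS20 among them.

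The neuronal genes tested had brain means below 0 and head means nearer 0. All had been named from the 24 h brain list picked on these brain arrays, so this order is no independent evidence. Pkc98E, a protein kinase C, had brain ratios of -0.45, -0.76, -0.24 and -1.01 and head ratios of 0.11, 0.36 and 0.13. All brain values lay below all head values, with a difference of -0.82 (SE 0.27). Sh, the Shaker potassium channel, had brain ratios of -0.89 and -1.06, and head ratios of 1.03, -0.76 and 0.05, a difference of -1.08 (95% interval -2.18 to 0.02). cpx, complexin, which clamps synaptic vesicle fusion, had brain ratios of -0.43, -0.40, -0.88 and -1.24 and head ratios of 0.51, -0.54 and -0.36, and the tissues overlapped. The calcium channel cac averaged -0.71 in brain and -0.40 in head, and the phosphatase Ptp99A -0.62 and -0.12. Both cac and Ptp99A had head values only from arrays with mated RNA in Cy5.

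The RNA-binding proteins tested also had brain means below 0, but their head values differed. heph, a polypyrimidine tract binding protein, averaged -0.64 in brain and 0.35 in head, where replicate 1 stood at 2.06 and the others at -0.58 and -0.43. bru-3 averaged -0.65 and -0.03, and orb2, which binds messenger RNAs at synapses, -0.60 and -0.28. The head values of bru-3 came only from arrays with mated RNA in Cy5. All 8 tested genes of the lists for channels and release (3), RNA binding (3) and kinases, phosphatases and guidance (2) had brain means below 0 and the lower ratio in brain. The list medians of the difference were -0.61, -0.62 and -0.66. Of the 8, 1 had an unadjusted p under 0.05, Pkc98E, against 3.12% of all probes in this direction. Without head replicate 1 the medians were -0.31, -0.21 and -0.68, and without head replicate 3, with fewer genes, -1.17, -0.97 and -0.74. All 8 had been named from the 24 h brain list, which was picked on these brain arrays. With the dye term heph passed, at -1.42 and an adjusted p of 0.0143 from limma, but without head replicate 1 its plain difference was -0.14. The head samples contain the brain too, and the share of head RNA that came from it was not measured.

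**Figure D4:**
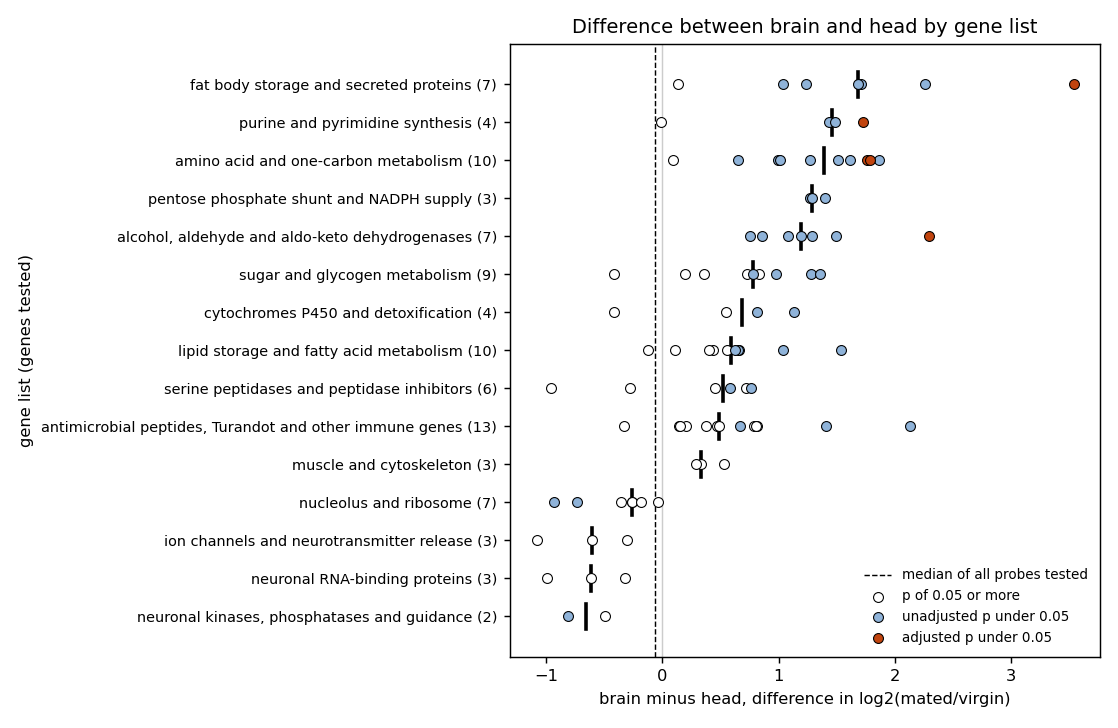
Difference in log2 mated/virgin ratio, brain minus head, for each tested gene of 15 lists with at least 2 tested genes; filled red points passed the adjusted threshold, blue points had an unadjusted p under 0.05, black ticks are list medians and the dashed line is the median of all probes, -0.06. Storage, one-carbon, purine and dehydrogenase lists lie to the right, with medians of 1.19 to 1.68, and the neuronal lists to the left, with medians of -0.66 to -0.61, which are -0.68 to -0.21 without head replicate 1.

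The differences varied with the list that named a probe. The 64 probes on the 24 h head list had a median difference of 1.22. An unadjusted p under 0.05 was reached by 46 with the higher ratio in brain and by 9 with the lower. The 43 on the 24 h brain list had a median of 0.29, with 12 such probes higher and 2 lower in brain. Over all probes the shares were 5.6% higher and 3.12% lower. Both lists were picked on these same arrays, so their counts are no independent evidence. The 87 probes named only from lists of heads at other times, picked on other arrays, had a median of 0.19 against -0.08 for the 2310 probes with no name. Of these 87, 13 had the higher ratio in brain at an unadjusted p under 0.05 and 3 the lower, against 5.6% and 3.12% of all probes. A positive difference was found for 56, against 44.5% of all probes. They include Glt, CG17325, CG15096, CG9485 and Cyp28d1 above. The probes with no name held 70 higher and 64 lower at an unadjusted p under 0.05 and no call.

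Lists with a single tested gene gave no group. P58IPK, a chaperone cofactor of the endoplasmic reticulum, had a difference of -0.05 (95% interval -0.78 to 0.67), and DnaJ-1, a heat shock cochaperone, of -0.08 (-0.83 to 0.67). No odorant-binding or chemosensory gene could be tested.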

How the data were processed

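The values the authors deposited are, for each array, normalized log2 ratios of mated to virgin, turned for the dye swap before deposit. Both properties were inferred from the study's lists of mean ratios, which equal the antilog of the mean values. Scanner, background correction and the reason for empty cells: not given in the sources used here. Of 15776 rows, 32 controls were left out; no sample column was unused (0). Names came from the study's 5 lists of 100 genes by matching mean ratio and p (499 of 500 entries matched), current symbols from RefSeq.

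Each probe with at least 2 values in each tissue was fitted by lmFit and eBayes of limma 3.58.1 under R 4.3.3, contrast brain minus head over 8 arrays, with Benjamini-Hochberg adjustment over 2499 probes and a threshold of 0.05. Each tissue was also tested against 0. The fit was tested on simulated data for this contrast. With 200 changed probes among 2499 it recovered 97.4% of log2 differences of 2 and 38.4% of 1, with 5.13% false calls. The simulated noise was independent between arrays and held no dye effect, and 200 changes were planted, against 5 calls in the data. These rates therefore need not hold for the arrays used here. Precision is limited by the number of arrays. The p-values measure the spread between these samples, which in the plain fit includes any dye bias.

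Members and lists were chosen with earlier results of these data known. The text names probes past the adjusted threshold, the 12 highest and 12 lowest differences among named probes with at least 3 values in each tissue and an unadjusted p under 0.05 (8 were found in the second direction), up to 4 genes of each of 20 lists by lowest p, and 12 genes fixed by name. CG34424, CG15096, TotA, Tsf1, a ribosomal RNA probe and those of the closing observations were named after their values were seen. Replicate numbers were checked as pairs by the correlation of deviations from the tissue means. Alternatives were centring, scaling, a dye term, the number of values, tissue weights, robust eBayes, all 20 arrays, a Student test, plates 2 to 31, each array left out, a replicate block and single dye orientations. Tables and figures used Python 3.11.15, pandas, numpy, scipy and matplotlib.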

Additional observations from a re-analysis of the deposited data

Results flagged for a closer look

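The effect of mating differed between brain and head for 5 genes by the test of the difference itself (limma, adjusted p 0.0314 each). The differences, brain minus head, were 3.54 for Lsp2, 2.29 for CG10962, 1.79 for Nmdmc, 1.77 for aay and 1.73 for CG11089. In all 5 the 3 head arrays with a value lay below the 4 brain arrays. With the dye term the differences were 3.42, 2.15, 1.76, 1.83 and 1.68 in the same order.

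In 6 of the 78 gene and tissue groups with 4 values that were checked, 1 array stood far from the other 3, by a gap beyond Dixon's 95% criterion for 4 values; chance flags about 1 group in 20. These were Bgb in brain (replicate 4, at -0.36), Rh5 in brain (replicate 2, at -0.39), ade3 in head (replicate 2, at -0.19), bur in brain (replicate 4, at -0.49), Nop60B in brain (replicate 4, at 0.69) and Tsf1 in brain (replicate 1, at 0.63).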

How the results depend on the processing

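The 5 calls of the difference remained, and no other probe passed, when arrays were centred on their median, weighted by tissue, fitted with robust eBayes, extended to plate 31 or required to have a value in each dye orientation. With at least 3 values in each tissue 15 probes passed, with all 20 arrays in 1 fit 29, with the dye term 89 and over the arrays with mated RNA in Cy5 alone 29, in each case with the 5 among them. After centring and scaling, and with a Student test, 0 passed (164 and 130 higher, 56 and 113 lower at an unadjusted p under 0.05). On the 130 probes with values on all 8 arrays 2 passed (CG3011 and Aldh), and on the 183 probes with 2 arrays of each tissue with mated RNA in Cy3 limma called 0 (15 higher and 10 lower at an unadjusted p under 0.05); none of the 5 had those values. Leaving out an array gave 0 to 10 calls. The count was 2 without brain replicate 2, 1 without brain replicate 4 and 10 without head replicate 2.

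Within brain, where 3 probes passed, the dye term gave 8 and leaving out an array 0 to 4. Within head, where 1 passed, the dye term gave 59, at least 3 values 10, values on all 4 arrays 0 (13 higher and 8 lower at an unadjusted p under 0.05) and leaving out an array 1 to 14. The correlation of brain and head responses across probes ran from -0.0871 to 0.16 with an array left out. It was -0.0436 on probes with values on all 8 arrays, -0.22 between brain arrays with mated RNA in Cy5 and head arrays in Cy3, and, chosen after seeing the data, 0.17 over the Cy5 arrays of both tissues.

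With the replicate number as a block 17 probes passed, the 5 among them, of 2208. Deviations of same-numbered arrays correlated at 0.05 to 0.17, and brain replicate 2 correlated best with head replicate 1 (0.23), so the numbers were not taken as pairs. In that fit DnaJ-1 turned to 0.29.

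Single genes turned as follows. bur was 0.0219 after centring, 0.0916 after centring and scaling, 0.14 over the Cy5 arrays and -0.24 to 0.27 with an array left out. Over the Cy5 arrays P58IPK was 0.41, DnaJ-1 0.29, RpS20 0.0167, Nha2 0.21, CG15065 -0.0423, CG16704 -0.0163, CG16836 -0.19 and nimB4 -0.10. With an array left out P58IPK ran from -0.43 to 0.28, DnaJ-1 from -0.21 to 0.0593, CG8147 from -1.30 to 0.14, CG16836 from -0.0442 to 0.44, Nha2 from -0.41 to 0.0684 and Tsf1 from -0.31 to 0.43. Tsf1 was -0.0102 with the dye term. The ribosomal RNA probe was 0.79 over the Cy5 arrays and -1.76 to 0.61 with an array left out. The cause was not tested. The other genes named in the report kept the sign of their difference under every alternative that could be fitted. Empty cells, mostly on head replicate 2, limit what could be tested.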

Other observations

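Some named probes had values for a tissue from 1 dye orientation alone and were singled out after their values were seen. skd, a subunit of the Mediator complex, had ratios of -0.71 and -0.70 on the brain arrays with mated RNA in Cy3 and of -2.71 and -2.10 on the head arrays with mated RNA in Cy5. Its difference of 1.70 (SE 0.38) had an adjusted p of 0.143 from limma, and for this probe dye and tissue cannot be told apart. CG13908 had the same pattern of empty cells, with ratios of -1.07 and -0.85 in brain and -0.95 and -0.56 in head, so it was below 0 in both. Nha2, a sodium proton exchanger, was above 0 on all 7 arrays that measured it, with means of 0.53 in brain and 0.73 in head and a difference of -0.20 (95% interval -0.85 to 0.45). nimB4, of the Nimrod family of phagocytic receptors and secreted proteins, was above 0 on all 8 arrays, with means of 0.55 and 0.41.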
